A study of Mus musculus with 27 samples.

Results

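Fibroblast growth factor (FGF) ligands and feedback genes of the ERK kinase pathway were followed in mouse embryonic stem cells in which WDR43, a WD-repeat protein needed for maturation of ribosomal RNA in the nucleolus, was knocked down. The set held 10 genes of the 38582 in the deposited RNA table, taken by gene symbol: the ligands Fgf4, Fgf15, Fgf17 and Fgf7, the phosphatases Dusp6 and Dusp4, the Sprouty proteins Spry2 and Spry4, and the transcription factors Etv4 and Etv5. They were picked with their RNA difference between knockdown and control cells in view, so that difference is described here, and the fit's calls on these 10 genes are printed as counts from which nothing is read.

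RNA was compared between shWDR43 (short hairpin RNA against WDR43) and its control shCtl (control short hairpin RNA), with 2 libraries each, given as biological replicates in the table's header. Both were mouse embryonic stem cells labelled wildtype and kept in medium with 15% serum and 1000 U/ml of leukemia inhibitory factor (LIF), a cytokine that maintains self-renewal. RNA polymerase II (Pol II) was mapped by chromatin immunoprecipitation sequencing (ChIP-seq) in shWDR43 and shCtl cells, 2 peak lists each, with 3 antibodies: against serine 5 phosphorylation (Ser5P, enriched near gene starts), 8WG16 (hypoP, hypophosphorylated Pol II) and against serine 2 phosphorylation (Ser2P, enriched over the ends of transcribed genes). Tagged WDR43 was mapped with a FLAG antibody in 5 lists of 1 library each: cells with Fbio-tagged WDR43 given the elongation inhibitor DRB, actinomycin D (ActD) or the solvent DMSO, FB-tagged cells, and cells labelled cFB-KI. The sources used here state neither the hairpin sequences nor the time since knockdown nor the clonal origin of the lines. They also leave unsaid whether the ChIP numbers 1 and 2 mark replicate cultures or hairpins.

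FGF ligands are secreted proteins that bind receptor tyrosine kinases together with heparan sulfate. The receptors switch on RAS, which passes the signal through the kinases RAF and MEK to ERK. In mouse embryonic stem cells FGF4 is the main autocrine ligand of this pathway, and ERK activity prepares the cells to leave the naive state. ERK also raises transcription of its own inhibitors, among them DUSP phosphatases and Sprouty proteins, and of the ETS factors Etv4 and Etv5, so their RNA is widely used as a readout of FGF signalling.

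Strand, and the starts used for motif distances, came from RefSeq promoter windows on build GRCm38.p6, which 5 of the genes matched. For peaks, an end of the mm9 locus was taken as the start of a gene. Where an entry exists, this was the low-coordinate end for Fgf4, Fgf7 and Dusp6, and the high-coordinate end for Spry2 and Etv5. The 250 bases before the start are printed for 4 of them: Fgf4 and Dusp6, whose starts lay under WDR43 peaks in DMSO-treated and FB-tagged cells, Spry2, whose start lay under a Ser5P peak in both shWDR43 lists and in neither shCtl list, and Fgf7, which had no peak in any list. Capitals mark matches, on either strand, to 6 motifs. The ETS family motifs searched were CCGGAA as well as CAGGAA. The SP1 family motif was GGGCGG, the NF-Y motif CCAAT, the octamer ATTTGCAT and the core promoter motif TATAAA. A printed ATTGG stands for the NF-Y motif on the other strand. No searched motif overlaps another in these sequences.
Fgf4: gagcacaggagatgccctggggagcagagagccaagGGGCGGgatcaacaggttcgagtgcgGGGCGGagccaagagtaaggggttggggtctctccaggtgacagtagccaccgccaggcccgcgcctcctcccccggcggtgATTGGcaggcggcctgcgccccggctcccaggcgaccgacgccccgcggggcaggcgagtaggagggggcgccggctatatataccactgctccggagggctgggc
Dusp6: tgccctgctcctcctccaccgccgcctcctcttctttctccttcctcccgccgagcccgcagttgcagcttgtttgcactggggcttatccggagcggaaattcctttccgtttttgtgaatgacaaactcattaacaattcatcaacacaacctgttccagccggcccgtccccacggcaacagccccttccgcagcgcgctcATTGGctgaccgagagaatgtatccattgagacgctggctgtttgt
Spry2: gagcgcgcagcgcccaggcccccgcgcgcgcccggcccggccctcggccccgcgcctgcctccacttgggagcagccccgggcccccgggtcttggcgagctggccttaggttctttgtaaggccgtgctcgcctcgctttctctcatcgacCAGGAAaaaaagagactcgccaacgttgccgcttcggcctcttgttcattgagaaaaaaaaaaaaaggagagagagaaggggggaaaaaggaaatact
Fgf7: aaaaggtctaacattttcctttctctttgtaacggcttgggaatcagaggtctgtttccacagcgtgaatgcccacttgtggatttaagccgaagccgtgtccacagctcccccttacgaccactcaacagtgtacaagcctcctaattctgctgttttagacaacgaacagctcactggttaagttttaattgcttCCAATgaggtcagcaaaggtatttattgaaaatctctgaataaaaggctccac
The Fgf4 stretch (GRCm38.p6 chr7:144861136-144861385, + strand) held GGGCGG at 214 and 188 bases before the start and ATTGG at 106 bases. In Dusp6 (chr10:99262981-99263230, + strand) ATTGG lay 46 bases before the start. In Spry2 (chr14:105896820-105897069, - strand) CAGGAA lay 98 bases before it, and a CCGGAA lay 34 bases after it, beyond the printed stretch. In Fgf7 (chr2:126034408-126034657, + strand) the single match was CCAAT at 53 bases. Of all 32851 promoter windows of 300 bases, 37.4% held CCAAT, 35.7% GGGCGG, 30.6% CAGGAA, 14.9% CCGGAA, 13.6% TATAAA and 1.74% ATTTGCAT. The GC content of the windows was 69.7% for Fgf4, 62.7% for Spry2, 57.3% for Dusp6 and 45.7% for Fgf7, with a median of 52.7% over all windows. Etv5 had 2 windows, with 74.0% and 60.0%. These windows are on another build than the peaks and were not matched to them by position.

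RNA values were read as FPKM (fragments per kilobase of transcript, a per-length scale) on the authors' spike-in scale. All 10 genes had a mean of at least 1 FPKM and entered a limma fit over 12452 genes on log2(FPKM + 1), so log2 differences of low genes are understated, while folds are ratios of mean FPKM with nothing added. Wdr43 itself stood at 21.2 and 20.7 FPKM in shWDR43 libraries, against 82.3 and 78.2 FPKM in shCtl libraries. Library totals were 687051 and 681178 FPKM in shWDR43 and 1015232 and 1040749 FPKM in shCtl, and the median tested gene had a log2 difference of -0.39 (shWDR43 minus shCtl, here and below). After centring each library on its median, which moved every gene by 0.33, 61.7% of the called genes were lower (2606 lower and 1615 higher), against 87.5% without centring. Leaving out any 1 of the 4 RNA libraries ended every call of the fit. At an unadjusted p under 0.05 those reduced limma fits still held 3928 to 4902 lower and 576 to 730 higher genes. The 6 markers of embryonic stem cells summed to 2490 and 2356 FPKM in shWDR43 and to 4357 and 4398 FPKM in shCtl. By the same fit 5 of the 6 fell, where 42.7% of all tested genes did, and Nanog did not pass. Dppa5a, with 1277 and 1272 FPKM in shWDR43 and 2257 and 2347 FPKM in shCtl, made up over 50% of each sum. In such bulk libraries fewer cells of a type and less RNA per cell cannot be told apart.

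Of the 10 genes, 9 had lower and 1, Fgf7, had higher RNA in shWDR43 cells. By limma with Benjamini-Hochberg adjustment 9 passed as lower, where 42.7% of all tested genes did, and 1 as higher, where 6.1% did. Since the genes were chosen on this contrast, nothing is read from those counts. Both shWDR43 libraries lay below both shCtl libraries for 9 genes (63.6% of tested genes did) and above them for 1 (12.6%). The median log2 difference of the set was -1.09, against -0.39 for all tested genes. Centring moved both by the same 0.33, which left -0.76 for the set. Summed over the set, RNA came to 245 and 194 FPKM in shWDR43 libraries, against 427 and 455 FPKM in shCtl libraries.

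**Figure D1:**
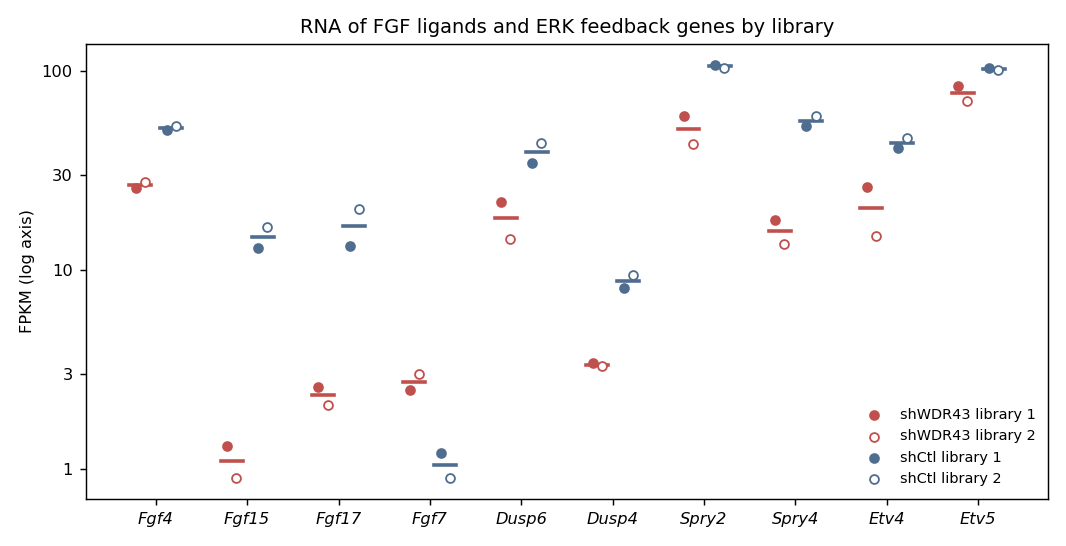
FPKM (log axis) of each of the 10 genes in each RNA library, with shWDR43 left of shCtl, circles for single libraries (filled for library 1, open for library 2) and bars for group means. Fgf15 shows the widest gap, with 1.3 and 0.9 FPKM in shWDR43 against 12.9 and 16.4 FPKM in shCtl, and Fgf7 alone sits higher in shWDR43.

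Among the ligands, Fgf4 had the most RNA in both groups. Fgf4 (NM_010202; mm9 chromosome 7, 152047291 to 152051148) stood at 25.8 and 27.8 FPKM in shWDR43 libraries, against 50.6 and 53.3 FPKM in shCtl libraries. The libraries of each group lay close together and the groups did not overlap. Its mean was 26.8 ± 1.41 FPKM in shWDR43 and 52.0 ± 1.91 FPKM in shCtl (SD, n = 2 each), 1.94-fold lower, with a log2 difference of -0.93 ± 0.13 (SE). Centring left a log2 difference of -0.60.

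Fgf15, the mouse counterpart of human FGF19 and a gut hormone in the adult, is the next gene along the same chromosome (NM_008003; mm9 chromosome 7, 152082437 to 152086856), with 31288 bp between it and Fgf4. It had 1.3 and 0.9 FPKM in shWDR43 libraries, against 12.9 and 16.4 FPKM in shCtl libraries. Both knockdown libraries were near the lower limit of the tested range, while both controls were far above it. Means were 1.10 ± 0.283 FPKM in shWDR43 and 14.7 ± 2.47 FPKM in shCtl (SD, n = 2 each), 13.3-fold lower. The log2 difference was -2.90 ± 0.18 (SE), and 3 of the 12452 tested genes had a lower value. On either side of this pair of genes, Fgf3 had 0.4 and 0.2 FPKM in shWDR43 and 1.6 and 0.3 FPKM in shCtl, too low to be tested. Oraov1, 14242 bp beyond Fgf15, had 4.9 and 5.5 FPKM in shWDR43 and 3.9 and 4.1 FPKM in shCtl, a log2 difference of 0.31 (limma, Benjamini-Hochberg adjusted p = 0.122).

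Fgf17, a ligand of the FGF8 subfamily, showed the second largest difference of the set (NM_008004; mm9 chromosome 14, 71036012 to 71042075). Its values were 2.6 and 2.1 FPKM in shWDR43 libraries, against 13.2 and 20.3 FPKM in shCtl libraries. The controls differed more from each other than the knockdown libraries did, yet both stayed well above them. Group means were 2.35 ± 0.354 FPKM in shWDR43 and 16.8 ± 5.02 FPKM in shCtl (SD, n = 2 each), 7.13-fold lower. The log2 difference was -2.38 ± 0.21 (SE), and 12 tested genes had a lower value.

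Fgf7, also called keratinocyte growth factor and usually made by mesenchyme for epithelia, ran the other way (NM_008008; mm9 chromosome 2, 125860394 to 125916921). It had 2.5 and 3.0 FPKM in shWDR43 libraries, against 1.2 and 0.9 FPKM in shCtl libraries. All 4 values were low, and the groups did not overlap. Means of 2.75 ± 0.354 FPKM in shWDR43 and 1.05 ± 0.212 FPKM in shCtl (SD, n = 2 each) gave a 2.62-fold higher level. The log2 difference was 0.87 ± 0.20 (SE), or 1.20 after centring, and 377 tested genes had a higher value.

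Of 10 fibroblast markers, whose cell type commonly makes Fgf7 and is often used as feeder cells, 6 were tested, and 2 (Tagln and Fbln2) rose and 1 (Thy1) fell (limma, Benjamini-Hochberg). Over all tested genes 6.1% rose and 42.7% fell, the background for each marker list here. The 10 markers summed to 50.8 and 83.3 FPKM in shWDR43, against 36.5 and 49.6 FPKM in shCtl. Most of each sum came from Col1a1 and Col1a2, which did not pass. Col1a1 had 17.9 and 30.9 FPKM in shWDR43 and 12.3 and 18.4 FPKM in shCtl. Col1a2 had 16.4 and 28.8 FPKM in shWDR43 and 12.9 and 16.1 FPKM in shCtl. Dcn and Lum were listed at 0 in all 4 libraries, Postn reached at most 0.1 FPKM and Col3a1 at most 0.7 FPKM. Whether such cells contributed to the Fgf7 value was not tested. Markers of primitive endoderm, a lineage that needs FGF signalling in the embryo, summed to 136 and 142 FPKM in shWDR43 and to 93.8 and 97.1 FPKM in shCtl. Of those 8 markers 6 were tested, and 3 rose and 0 fell. The 7 trophectoderm markers summed to 26.2 and 32.3 FPKM in shWDR43 and to 13.8 and 13.4 FPKM in shCtl, and of the 4 tested, 3 rose and 0 fell. Among the markers that rose, Gata6 of primitive endoderm and Krt7 of trophectoderm had shCtl means of 0.6 and 0.35 FPKM. They reached the filter of a mean of at least 1 FPKM only through shWDR43, so nothing is read from their rise. Sparc, with 97.2 FPKM in both shWDR43 libraries and 71.3 and 73.6 FPKM in shCtl libraries, made up most of the primitive endoderm sum, while Sox17 reached at most 0.4 FPKM.

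The other 18 genes of the FGF family had little RNA. They include Fgf11, Fgf12, Fgf13 and Fgf14, whose proteins stay inside the cell and are not receptor ligands. In that list 2 were tested and neither passed: Fgf1 had a log2 difference of 0.16 (limma, Benjamini-Hochberg adjusted p = 0.505) and Fgf13 of -0.40 (adjusted p = 0.270). Of the remaining 16, none exceeded 1.6 FPKM in any library and 5 were listed at 0 in all 4. Fgf4, Fgf15 and Fgf17 were therefore the only FGF ligands above 10 FPKM in a shCtl library, and Fgf4 the only such ligand in a shWDR43 library.

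Both DUSP phosphatases had lower RNA in shWDR43 cells. Dusp6, which removes phosphate from ERK in the cytoplasm, lies on chromosome 10 (NM_026268; mm9, 98725865 to 98730123). It had 22.1 and 14.3 FPKM in shWDR43 libraries, against 34.6 and 43.5 FPKM in shCtl libraries. The libraries of a group differed, and the highest knockdown value was still under the lowest control value. Means of 18.2 ± 5.52 FPKM in shWDR43 and 39.1 ± 6.29 FPKM in shCtl (SD, n = 2 each) were 2.15-fold apart, and the log2 difference was -1.08 ± 0.22 (SE). Leaving out 1 library gave log2 differences between -1.38 and -0.78.

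Dusp4, a nuclear phosphatase for ERK and related kinases, was less abundant (NM_176933; mm9 chromosome 8, 35870664 to 35882948). Its 3.4 and 3.3 FPKM in shWDR43 libraries stood against 8.1 and 9.5 FPKM in shCtl libraries. This was the tightest pair of knockdown values in the set. Means were 3.35 ± 0.0707 FPKM in shWDR43 and 8.80 ± 0.990 FPKM in shCtl (SD, n = 2 each), 2.63-fold lower, with a log2 difference of -1.17 ± 0.15 (SE). Tnks, whose locus ends 6565 bp away, had a log2 difference of -0.06 (limma, Benjamini-Hochberg adjusted p = 0.764).

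The Sprouty proteins, which damp signalling between receptor and RAF, both had lower RNA, Spry4 more so than Spry2. Spry2 (NM_011897; mm9 chromosome 14, 106291164 to 106296036) had 59.3 and 43.1 FPKM in shWDR43 libraries, against 107.8 and 104.1 FPKM in shCtl libraries. The controls nearly coincided and the knockdown libraries were spread below them. The means were 51.2 ± 11.5 FPKM in shWDR43 and 106 ± 2.62 FPKM in shCtl (SD, n = 2 each), 2.07-fold lower, and the log2 difference was -1.05 ± 0.17 (SE). Spry4 (NM_011898; mm9 chromosome 18, 38745919 to 38760922) had 17.9 and 13.5 FPKM in shWDR43 libraries, against 52.8 and 59.2 FPKM in shCtl libraries. Neither shWDR43 value came near the shCtl range. Spry4 means of 15.7 ± 3.11 FPKM in shWDR43 and 56.0 ± 4.53 FPKM in shCtl (SD, n = 2 each) were 3.57-fold apart. The log2 difference was -1.78 ± 0.17 (SE), with 66 tested genes lower still. Leaving out single libraries gave -1.28 to -0.83 for Spry2 and -1.97 to -1.59 for Spry4. The difference between these 2 genes was not tested.

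The PEA3-type ETS factors Etv4 and Etv5 both had lower RNA, and the difference between them was not tested. Etv4 (NM_008815; mm9 chromosome 11, 101631056 to 101646624) had 26.2 and 14.9 FPKM in shWDR43 libraries, against 41.2 and 46.3 FPKM in shCtl libraries. It had the widest relative spread between knockdown libraries among the phosphatases, Sprouty genes and ETS factors, and no overlap of groups. Its means were 20.6 ± 7.99 FPKM in shWDR43 and 43.8 ± 3.61 FPKM in shCtl (SD, n = 2 each), 2.13-fold lower, with a log2 difference of -1.10 ± 0.24 (SE). It was -0.72 without shWDR43 library 2 and -1.49 without shWDR43 library 1, with the other leave-outs between. Dhx8, an RNA helicase gene 2384 bp from Etv4, had 19.0 and 15.6 FPKM in shWDR43 and 33.3 and 29.8 FPKM in shCtl, and fell by 0.83 on the log2 scale (limma, Benjamini-Hochberg adjusted p = 0.00481). Etv5 (NM_023794; mm9 chromosome 16, 22381386 to 22439643) had 84.2 and 70.7 FPKM in shWDR43 libraries, against 104.1 and 101.4 FPKM in shCtl libraries. It was the gene of the set least changed in value. Its means of 77.5 ± 9.55 FPKM in shWDR43 and 103 ± 1.91 FPKM in shCtl (SD, n = 2 each) differed 1.33-fold, with a log2 difference of -0.41 ± 0.13 (SE), close to the -0.39 of the median tested gene. After centring it was -0.08.

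Neighbouring protein-coding genes, chosen by position after the data had been seen, numbered 18 outside the set, and 12 of them were tested. Of these 4 fell and 0 rose, against 42.7% and 6.1% of all tested genes (limma, Benjamini-Hochberg). Besides Dhx8 they were Dmtn, 17635 bp from Fgf17 (log2 difference -1.15, adjusted p = 0.00153), Dtwd1, 60955 bp from Fgf7 (-0.69, adjusted p = 0.0353), and Tra2b, 115383 bp from Etv5 (-0.90, adjusted p = 0.00281).

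All 6 genes that are not ligands had more RNA in shWDR43 library 1 than in shWDR43 library 2. The share of all tested genes that did was not counted, so nothing is read from this. RNA summed over the RAS to ERK relay genes listed below ran the same way, with 395 and 350 FPKM in these libraries. The fibroblast markers ran the other way, with 50.8 and 83.3 FPKM. Levels per length ran, in shWDR43, in the order Etv5, Spry2, Fgf4, Etv4, Dusp6, Spry4, Dusp4, Fgf7, Fgf17 and Fgf15. Within that order the ranges of neighbours overlapped between Fgf4 and Etv4, Etv4 and Dusp6, Dusp6 and Spry4, and Fgf7 and Fgf17. In shCtl the order was Spry2, Etv5, Spry4, Fgf4, Etv4, Dusp6, Fgf17, Fgf15, Dusp4 and Fgf7, with overlap between Spry2 and Etv5, Spry4 and Fgf4, Etv4 and Dusp6, and Fgf17 and Fgf15. Spry4 stood before Fgf4, Etv4 and Dusp6 in the shCtl order and after them in the shWDR43 order. Fgf17 and Fgf15 stood before Dusp4 and Fgf7 in shCtl and after them in shWDR43.

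Likeness to other genes was measured as the Euclidean distance between log2(FPKM + 1) values, centred on the gene mean, over the 4 libraries. Nearest to Fgf4 were Bola2 (distance 0.0211), Prdx5 (0.0239) and Usp6nl (0.0279). Nearest to Fgf15 were Myrf (0.123), Lefty1 (0.235) and Slc16a3 (0.375). Lefty1, a secreted Nodal inhibitor, had 3.8 and 2.7 FPKM in shWDR43 and 25.4 and 28.0 FPKM in shCtl. Nearest to Dusp6 were AK195788 (0.0928), Pim1 (0.131) and Gm16934 (0.134), and Pim1, a serine/threonine kinase, had 10.2 and 6.7 FPKM in shWDR43 and 18.3 and 20.6 FPKM in shCtl. Over 4 libraries in 2 groups these distances reflect the size of the group difference and the spread within groups.

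Pathway genes outside the set were counted beside all tested genes, of which 42.7% were called lower and 6.1% higher, with a median log2 difference of -0.39. Of 17 receptor and cofactor genes 11 were tested, with a median log2 difference of -0.02: 1 rose and 2 fell, a smaller share of lower calls than over all genes. Sdc4, a heparan sulfate proteoglycan of the cell surface, rose to 103 and 98.3 FPKM in shWDR43 libraries, against 34.1 and 32.7 FPKM in shCtl libraries (log2 difference 1.57 ± 0.12 SE, limma, Benjamini-Hochberg adjusted p = 0.000992). Gpc3, a glypican, fell by 1.31 on the log2 scale (adjusted p = 0.00212) and Ext1, an enzyme of heparan sulfate synthesis, fell by 0.70 (adjusted p = 0.00636). Fgfr2 had a log2 difference of 0.40 (adjusted p = 0.182). Fgfr1, named after its values were seen as the FGF receptor with the most RNA, had 20.6 and 21.7 FPKM in shWDR43 and 20.1 and 22.4 FPKM in shCtl, a log2 difference of -0.01 ± 0.13 (SE, adjusted p = 0.979).

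Of 22 tested genes of the RAS to ERK relay, 0 rose, 11 fell and 11 did not pass, with a median of -0.42 against -0.39 for all tested genes. That count is near the 42.7% lower of all tested genes. Mapk3, which encodes ERK1, had 8.7 and 11.1 FPKM in shWDR43 and 20.2 and 19.3 FPKM in shCtl and fell by 0.94 on the log2 scale (limma, Benjamini-Hochberg adjusted p = 0.00366). Gab1, a docking adaptor, fell by 0.72 (adjusted p = 0.00659). Frs3, an FGF receptor substrate, and Ksr1, a scaffold of the cascade, had log2 differences of 0.58 (adjusted p = 0.108) and 0.07 (adjusted p = 0.771). After centring, 3 genes of this list were lower and 1 was higher.

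The other feedback inhibitors counted 14 tested genes of 18, of which 0 rose and 5 fell, with a median of -0.36. Both are near the values of all tested genes, of which 42.7% fell, with a median of -0.39. Spred1, a Sprouty-related RAS inhibitor, had 12.2 and 9.4 FPKM in shWDR43 and 20.9 and 19.6 FPKM in shCtl and fell by 0.86 on the log2 scale (limma, Benjamini-Hochberg adjusted p = 0.00537). Il17rd, also known as Sef, an inhibitor of FGF signalling, fell by 0.80 (adjusted p = 0.00611). The phosphatases Dusp1 (log2 difference 0.42, adjusted p = 0.0700) and Dusp5 (0.24, adjusted p = 0.477) did not pass. After centring, 3 genes of the list were lower and 3 were higher. The list was broad, and whether each gene in it, such as Nf1, Rasa1 or Dusp16, is raised by ERK was not tested.

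Transcription factors regulated by ERK outside the set counted 16 tested genes of 18: 3 rose, 6 fell and the median was -0.21. Over all tested genes 6.1% rose and 42.7% fell. Myc had 5.5 and 3.0 FPKM in shWDR43 libraries and 23.8 and 24.8 FPKM in shCtl libraries and fell by 2.31 on the log2 scale (limma, Benjamini-Hochberg adjusted p = 0.00111). Etv1, the third PEA3-type factor, had 4.2 and 2.7 FPKM in shWDR43 and 10.3 and 8.4 FPKM in shCtl and fell by 1.23 (adjusted p = 0.00366). Ets1 had 1.9 and 2.0 FPKM in shWDR43 and 0.6 and 0.5 FPKM in shCtl and rose by 0.93 (adjusted p = 0.0116). Fosl2, an AP-1 subunit, rose by 0.87 (adjusted p = 0.0376). The 3 genes that rose, Ets1, Fosl2 and Fosl1, had shCtl means of 0.55, 0.8 and 0.8 FPKM. They reached the filter of a mean of at least 1 FPKM only through shWDR43, so nothing is read from their count.

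**Figure D2:**
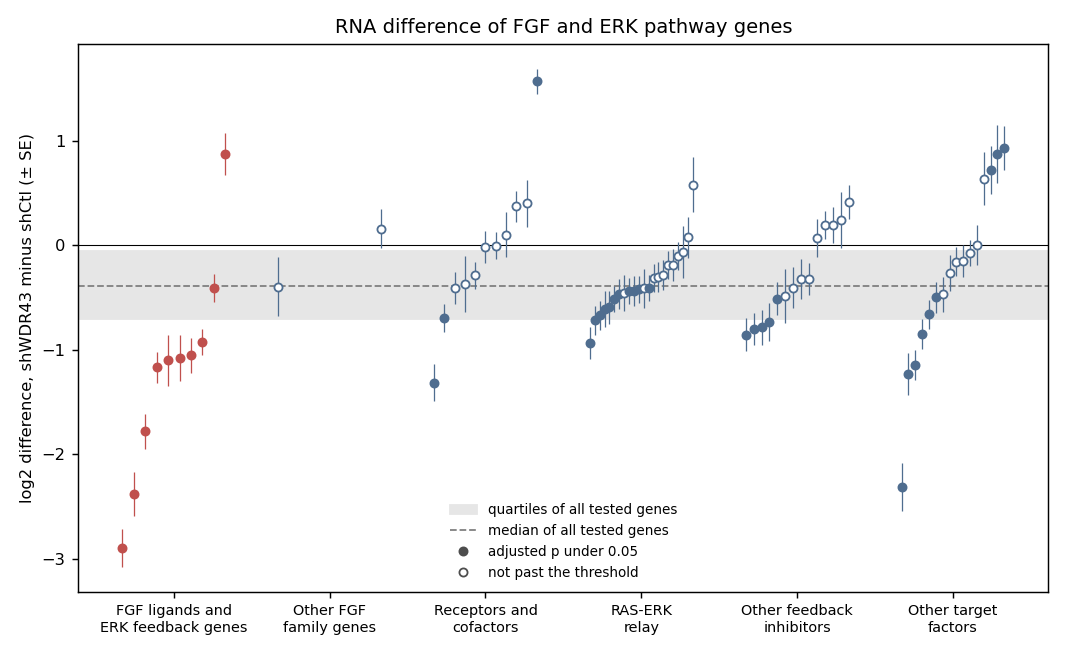
Log2 difference of RNA, shWDR43 minus shCtl, with its SE, for the 10 genes (red) and the tested genes of 5 pathway lists (blue), sorted within each list. Filled points passed an adjusted p under 0.05, the dashed line is the median of all tested genes (-0.39) and the grey band their quartiles (-0.71 and -0.06). Of the 10 genes, 8 lie below the band, Etv5 inside it and Fgf7 above it.

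Peaks at the genes were read from the 17 lists as regions sharing at least 1 bp with a locus extended by 1 kb at each end. Read depth is unknown for every list and list lengths differed widely, with 407 to 41552 peaks for WDR43 and 1879 to 31473 for Pol II, so counts were set beside the share of all 20192 protein-coding loci with a peak. Peak scores are the authors' own values, at least 50 in every list, and are compared only within a list. Dusp6 had a peak in 12 lists, Etv4 in 11, Spry2, Spry4 and Etv5 in 9 each, Dusp4 in 8, Fgf4 in 7, Fgf17 in 6 and Fgf15 in 2. Fgf7 had none.

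**Figure D3:**
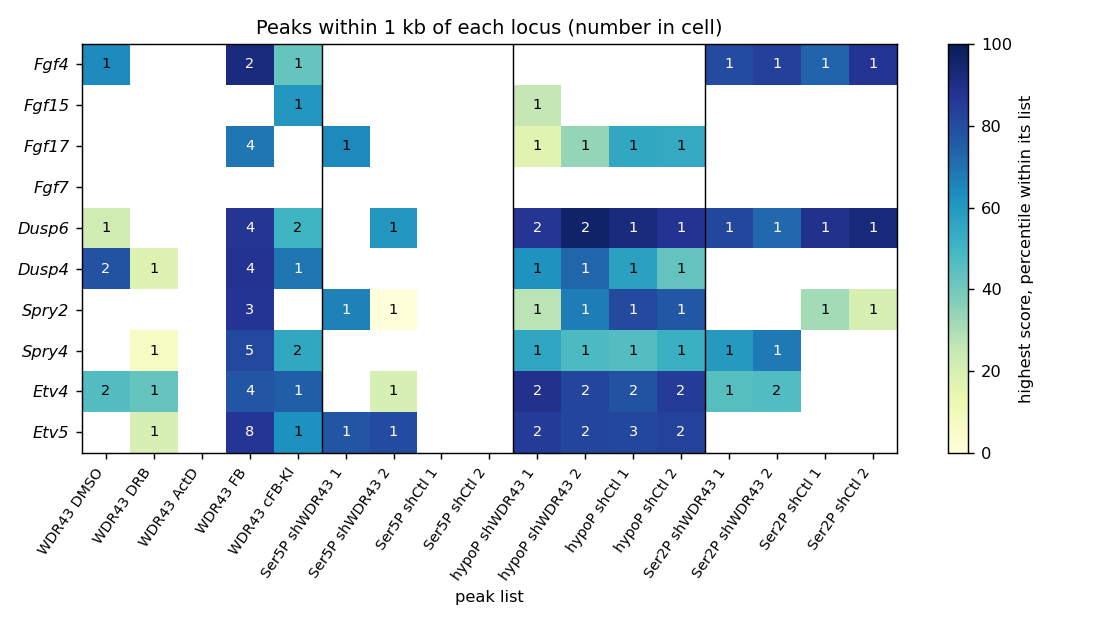
Peaks within 1 kb of each of the 10 loci in the 17 lists: the number in a cell is the count of peaks, and the colour gives the highest peak score as a percentile within that list. White cells have no peak. The Fgf7 row and the ActD column are empty, and Ser5P has filled cells in shWDR43 lists only.

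In DRB-treated cells WDR43 had peaks at 4 of the genes (9.92% of coding loci had one), in ActD-treated cells at 0 (0.659%) and in DMSO-treated cells at 4 (56.1%). The FB list had peaks at 8 (66.4%) and the cFB-KI list at 7 (64.1%). With DMSO the genes were Fgf4, Dusp6, Dusp4 and Etv4, and with DRB they were Dusp4, Spry4, Etv4 and Etv5. The DRB peaks at these genes had scores of at most 58.82, near the lowest deposited score, and none remained at a score of at least 100. The DMSO, DRB and ActD lists come from 1 library each, so their differences have no replicate check.

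At Fgf4, whose promoter holds a pair of GGGCGG matches, WDR43 lay over the start of the gene. The DMSO list had a peak of 611 bp there, the FB list a peak of 1044 bp at percentile 92.0 of its scores, and the cFB-KI list a peak of 1929 bp. The FB list had a further peak of 230 bp inside the gene, toward its end. Fgf4 had neither a Ser5P nor a hypoP peak within 1 kb in any list. Ser2P peaks spanned the end of the gene in all 4 lists, over 3677 and 4032 bp in shWDR43 and over 5068 and 5378 bp in shCtl. The median width of all Ser2P peaks was 1660 and 1683 bp in shWDR43 and 1918 and 2018 bp in shCtl, so peaks were narrower in shWDR43 over the whole list as well.

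Between Fgf4 and Fgf15, a hypoP peak of 1131 and 1080 bp stood 7257 and 7278 bp past the Fgf4 locus in the shWDR43 lists, and the shCtl lists had none there. Its scores lay at percentiles 20.3 and 14.8 of their lists. At Fgf15 itself there was a hypoP peak over the low-coordinate end in shWDR43 list 1 alone, and a WDR43 peak of 1795 bp in the cFB-KI list at the same end. Fgf15 had no Ser2P or Ser5P peak in either group, and with 12.9 and 16.4 FPKM of RNA in shCtl such peaks were not called in shCtl either.

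Fgf17 had a hypoP peak over its low-coordinate end in all 4 lists, of 8272 and 6735 bp in shWDR43 and 5782 and 6172 bp in shCtl. Its scores stood at percentiles 16.55 and 33.9 of their lists in shWDR43 and at 54.72 and 54.08 in shCtl. A Ser5P peak of 1126 bp stood at the same end in shWDR43 list 1 alone. WDR43 had 4 peaks there in the FB list and none in the other WDR43 lists.

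Across the genes, hypoP peaks were in both lists at 7 genes in shWDR43 (61.1% of coding loci) and at 7 in shCtl (55.3%), and they were the same 7 genes: Fgf17, Dusp6, Dusp4, Spry2, Spry4, Etv4 and Etv5. No gene of the set had a hypoP peak in both lists of one group and in neither of the other, which 3.74% of coding loci had for shWDR43 and 0.119% for shCtl. These counts are near the shares of all coding loci. With the 4 hypoP lists cut to the length of the shortest, 5 of the genes had a peak in both shWDR43 lists and 7 in both shCtl lists.

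At Dusp6 the hypoP peak spanned the start, over 5596 and 4547 bp in shWDR43 and 4997 and 5394 bp in shCtl, and its scores stood at percentiles 86.8 and 96.2 of their lists in shWDR43 and at 91.8 and 87.7 in shCtl. At Dusp4 the hypoP peaks lay over the low-coordinate end, with 4999 and 2107 bp in shWDR43 and 4060 and 5758 bp in shCtl. WDR43 was called at that end of Dusp4 in the DMSO list (859 bp), the FB list (699 and 617 bp) and the cFB-KI list (2052 bp).

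Both ETS factor genes had a hypoP peak inside the locus as well as at an end. Inside Etv4 it covered 2407 and 1584 bp in shWDR43 and 1551 and 1345 bp in shCtl, and the DMSO and FB lists each had a WDR43 peak (273 and 406 bp) within the span shared by all 4. Inside Etv5 the hypoP peak covered 4349 and 2409 bp in shWDR43 and 2419 and 2211 bp in shCtl, and a WDR43 peak of 916 bp in the FB list lay within all 4. That WDR43 peak, with a score of 297.38, and the one over the start of Etv5, with 297.63, were the highest of the 8 WDR43 peaks of the FB list at this gene. Elsewhere inside Etv5, shCtl list 1 alone had a further hypoP peak of 5686 bp, with a score of 79.3 at percentile 14.94 of its list.

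Ser5P peaks were in both shWDR43 lists at 2 genes (13.4% of coding loci) and in both shCtl lists at 0 (2.66%). The 2 genes were Spry2 and Etv5, and 7.47% of coding loci had Ser5P in both shWDR43 lists and neither shCtl list, against 0.337% the other way. At Spry2 the Ser5P peaks covered 3549 and 3696 bp around the start in shWDR43, with scores of 80.41 in list 1 and 50.11, at the floor, in list 2. At Etv5 they covered 1384 and 1837 bp around the start, with scores of 92.4 and 99.1. Fgf17 in shWDR43 list 1, and Dusp6 and Etv4 in shWDR43 list 2, had a Ser5P peak in that list alone. The Ser5P lists held 6535 and 7589 peaks in shWDR43 and 1879 and 2520 in shCtl, and with all 4 cut to the length of the shortest, 1 of the 2 genes kept its peaks in both shWDR43 lists. None of the Ser5P peaks at the genes reached a score of 100.

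Ser2P peaks differed between the groups in both directions. Both lists had a Ser2P peak at 4 genes in shWDR43 (12.7% of coding loci), namely Fgf4, Dusp6, Spry4 and Etv4, and at 3 in shCtl (14.5%), namely Fgf4, Dusp6 and Spry2. At Dusp6 the peaks lay at and beyond the end of the gene, over 1822 and 1952 bp in shWDR43 and 2791 and 2915 bp in shCtl. A further hypoP peak of 2713 and 2288 bp stood over or just past the same end in the shWDR43 lists and not in the shCtl lists. Its scores were 100.1 and 53.5, at percentiles 20.8 and 2.42, in lists of 31473 and 24485 peaks in shWDR43 against 19542 and 19561 in shCtl.

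At Spry4 both shWDR43 lists, and neither shCtl list, had a Ser2P peak over the low-coordinate end, of 5632 and 5117 bp with scores of 92.55 and 107.62. The hypoP peaks of Spry4 lay at the opposite end in all 4 lists. At Etv4 both shWDR43 lists, and neither shCtl list, had a Ser2P peak of 5597 and 5772 bp over the low-coordinate end. Its scores were 75.14 and 71.04, and it also lay within 1 kb of Dhx8. In shWDR43 list 2 alone, a further Ser2P peak of 1489 bp with a score of 78.42 lay over the high-coordinate end of Etv4. For Ser2P in both shWDR43 lists and neither shCtl list, Spry4 and Etv4 compare with 0.837% of coding loci. At Spry2 both shCtl lists, and neither shWDR43 list, had a Ser2P peak at or near the low-coordinate end, which is the end of the gene, of 4454 and 5449 bp with scores of 65.8 and 59.22. Of coding loci, 2.0% had that pattern. Lower RNA in shWDR43 therefore went with a Ser2P peak called only in shWDR43 at Spry4 and Etv4, only in shCtl at Spry2, and in both groups at Fgf4 and Dusp6. Fgf15, Fgf17, Dusp4 and Etv5, whose RNA was also lower, had no Ser2P peak within 1 kb in any list.

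**Figure D4:**
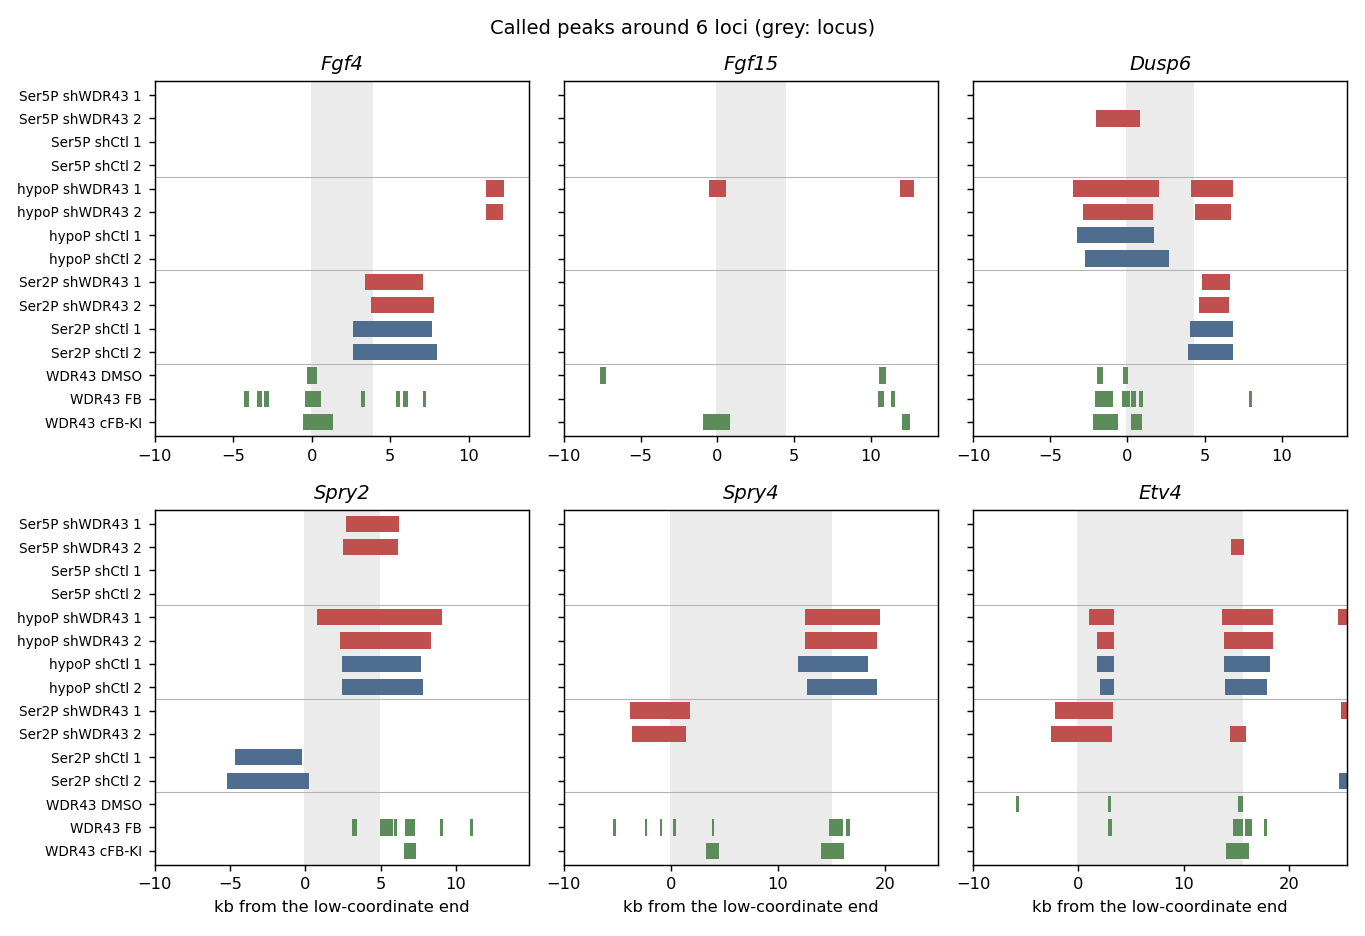
Called peaks around 6 loci, in kb from the low-coordinate end, with 1 row per list, shWDR43 above shCtl for each antibody (red and blue) and WDR43 lists in green; grey marks the locus and the DRB and ActD lists are not drawn. Fgf4 shows WDR43 at its start and Ser2P past its end without hypoP within 1 kb, Spry4 and Etv4 show Ser2P in shWDR43 lists, and Spry2 shows it in shCtl lists.

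An exact permutation test of 2 peak lists against 2 cannot reach p = 0.05, so the presence of peaks was described and not tested. RNA p-values rest on the 4 libraries only, with the variance of each gene moderated by limma over all tested genes.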

How the data were processed

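RNA and ChIP samples were grouped by their titles. The authors deposited values for 38582 genes, read here as FPKM because TopHat and Cufflinks stand in the submitters' processing notes; the sources used here give neither the spike-in scaling steps nor the read depth. The authors' deposited table also holds a signed fold change and a p-value, which were not used. The authors deposited 1 peak list per ChIP library with a score per peak; Bowtie2 and mm9 stand in the submitters' processing notes, and the peak names carry MACS. The other 6 of 27 samples are not analysed here.

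RNA was fitted with limma 3.58.1 (R 4.3.3, intensity trend) on log2(FPKM + 1) of genes with a mean of at least 1 FPKM, with Benjamini-Hochberg adjustment over 12452 genes and a threshold of 0.05, and tested on simulated data. Loci were read as 0-based starts and are printed 1-based. Strand-specific counting is not stated, so antisense and overlapping transcripts cannot be told apart. The genes, pathway lists and markers were chosen with earlier results of these data known. Named genes were the 10 genes, Wdr43, the 2 highest and 2 lowest tested genes of each pathway list, and the 3 nearest genes of Fgf4, Fgf15 and Dusp6. Outside this rule, Fgfr1, Fosl1, chromosomal neighbours and single marker genes were named after their values were seen.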

Additional observations from a re-analysis of the deposited data

How the results depend on the processing

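The RNA alternatives run were a pseudocount of 0.1, no filter on low values, centred libraries, no intensity trend, a replicate block and leaving out each library. All 10 genes kept the sign of their log2 difference under centring. The groups overlapped for none of the 10 genes, so no other setting could change a sign, and nothing is read from the signs there. Same-numbered libraries shared only a number (correlation of their deviations 0.0504). A replicate block gave 5926 lower and 840 higher genes in all, with 9 of the 10 genes lower and 1 higher as without it. With centred libraries, and with no intensity trend, 8 of the 10 genes were called lower and 1 higher, and Etv5 was not called. Without the filter, 2 of the 10 genes were called lower and 0 higher, counts from which nothing is read, and over all genes 633 were lower and 277 higher. Of the pathway lists, 1 target factor was then lower and 0 higher, and receptors, relay and feedback inhibitors had 0 lower. Centring gave 2606 lower and 1615 higher genes in all, and 3 higher receptors or cofactors. Among these 3, Fgfr2 had a shCtl mean of 0.75 FPKM and reached the filter only through shWDR43, so nothing is read from its call. With centring, 3 relay genes were lower and 1 higher, and 3 feedback inhibitors were lower and 3 higher. Leaving out any library, shWDR43 1 or 2 or shCtl 1 or 2, gave 0 calls for every list and for all genes, with 1 residual degree of freedom, where 3928 to 4902 genes in all were lower and 576 to 730 higher at an unadjusted p under 0.05.

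For peaks, a score of at least 100 left 1 gene for DMSO, 0 for DRB, 0 for Ser5P shWDR43 and 2 for Ser2P shWDR43. Requiring the overlap to cover at least 50% of the peak left 1 gene for Ser2P shWDR43 and 0 for Ser2P shCtl. Single Ser5P shWDR43 lists gave 3 to 4 genes in place of 2, and cutting the Pol II lists to equal length, chosen after seeing the data, gave 1. Extending loci by 10 kb or not at all kept each count of genes within 1.5 times. The causes of these changes were not tested.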
